A study of Mus musculus with 108 samples.

Results

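Cholesterol is built from acetyl-CoA through mevalonate, the isoprenoid farnesyl diphosphate and the hydrocarbon squalene, which is closed into lanosterol and trimmed to the finished sterol. The genes of this route are known as shared targets of the SREBP transcription factors. These factors are held in the endoplasmic reticulum by Insig proteins while sterols are plentiful and are released to the nucleus when sterols run low. The same route supplies isoprenoids for protein prenylation, dolichol and ubiquinone, and in the testis cholesterol is also the raw material of steroid hormones in Leydig cells.

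The 9 enzymes described here span that route and were taken by gene symbol from a table of 26218 genes, in which all 9 were found. In order of action they are Hmgcs1, Mvk, Mvd, Fdps, Fdft1, Sqle, Lss, Cyp51 and Dhcr7. They were measured in single mouse cells of 4 cultures. Germline stem cells (GSCs) are spermatogonial stem cells grown from testes, represented by GSC1 with 30 cells and GSC2 with 24. GSC-like cells (GSCLCs) are cultures of the same kind derived from pluripotent cells instead of a testis, represented by GSCLC1 with 30 cells and GSCLC4 with 24, and the labels give reconstituted testes held at 34 °C for 3 weeks as the origin of GSCLC4. GSC2 came from independent testes of postnatal day 7. The labels give no origin of that kind for GSC1 and GSCLC1. All 4 lines share the background 129/SvJcl x C57BL/6 and an AcrAct_EGFP reporter. They also share a serum-poor medium with 1% FBS, 5 mg/ml AlbuMAX, GDNF, bFGF, EGF and LIF. Each line is taken here as 1 derivation, so each type is represented by 2, and the cells of a line are not replicates of it.

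Profiles came from SC3-seq, which reads the 3′ ends of polyadenylated RNA from 1 cell. Values are RPM, read counts scaled to library size, and they do not scale with transcript length. The estimated depth was 2.00 M to 6.04 M reads per cell. Germ cell markers were abundant in all lines, with means of 3285 to 3521 RPM for Dazl and 781 to 986 RPM for Ddx4. Of 8 Leydig cell markers 6 stayed below 1 RPM in every line. Among them Cyp11a1, the enzyme that opens steroid hormone synthesis, was at 0 in every cell of all 4 lines. Star and Insl3 did not stay below 1 RPM. Star had means of 6.71 RPM in GSC1, 1.56 RPM in GSC2, 9.05 RPM in GSCLC1 and 0.79 RPM in GSCLC4. Insl3 had a mean of 3.33 RPM in GSCLC4 and stayed below 1 RPM elsewhere. The summed level of 12 fibroblast and feeder markers had a median over cells of 750 RPM in GSC1, 668 RPM in GSC2, 272 RPM in GSCLC1 and 549.7 RPM in GSCLC4. One GSC1 cell stood apart, with 63466 RPM of those markers, 5748 detected genes, 11.9 RPM of Hmgcs1, 81.1 RPM of Mvd and 0 RPM of Fdps, Fdft1, Lss, Mvk and Dhcr7. It was left out, which leaves 29 cells in GSC1.

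The promoters show what these genes have in common in sequence. RefSeq windows on GRCm38.p6, from 250 bases before to 50 bases after a start site, were found for 6 of the 9 genes. Fdps, Fdft1 and Sqle had no entry. A sterol regulatory element, a DNA word SREBP factors bind, was searched as TCACNCCAC on both strands. It occurred in 1.24% of all 32851 windows and, among the 6 genes, in Hmgcs1. The shorter form TCACNCCA, which the longer one contains, was in 4.36% of all windows and again in Hmgcs1 alone of the 6. A CCAAT box, the word of the factor NF-Y, occurred in 37.4% of all windows and in 6 of the 8 windows of these genes. Each of the 6 genes had it in at least 1 window, with 4 copies in the Hmgcs1 window and 5 in that of Mvk. Dhcr7 had 3 windows, of which window 3 alone held it. A GC box, searched as GGGCGG, was in 35.7% of all windows and likewise in at least 1 window of each of the 6. It was missing from window 2 of Dhcr7. No searched word overlapped the element in Hmgcs1 other than its own shorter form. A match is a description of the letters and not a measured site. Other forms of the sterol regulatory element were not searched, so a window without a match is not shown to lack one.

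The 4 stretches below are shown because they hold the single match to TCACNCCAC (Hmgcs1), repeated CCAAT boxes (Hmgcs1, Mvk and Mvd) or, for contrast, a single CCAAT box (Lss). They lie before the annotated gene starts and overlap no exon of the GENCODE annotation. Each runs 5′ to 3′ on the strand of its gene, and capitals mark TCACNCCAC or CCAAT, the latter in either orientation (ATTGG on the printed strand is CCAAT on the other). They are chr13:119690101-119690350 on the plus strand for Hmgcs1, chr5:114444061-114444263 on the plus strand for Mvk, chr8:122443433-122443502 on the minus strand for Mvd and chr10:76531495-76531564 on the plus strand for Lss.
Hmgcs1: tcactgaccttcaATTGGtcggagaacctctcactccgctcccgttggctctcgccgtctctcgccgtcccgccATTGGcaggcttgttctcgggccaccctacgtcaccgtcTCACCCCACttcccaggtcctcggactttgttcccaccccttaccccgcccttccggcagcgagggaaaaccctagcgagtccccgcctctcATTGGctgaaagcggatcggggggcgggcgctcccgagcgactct
Mvk: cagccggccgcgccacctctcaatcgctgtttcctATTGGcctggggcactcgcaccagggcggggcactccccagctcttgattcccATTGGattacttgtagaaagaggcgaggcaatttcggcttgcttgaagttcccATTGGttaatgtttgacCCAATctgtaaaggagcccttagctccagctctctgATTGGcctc
Mvd: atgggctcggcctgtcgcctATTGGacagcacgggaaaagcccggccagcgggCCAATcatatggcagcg
Lss: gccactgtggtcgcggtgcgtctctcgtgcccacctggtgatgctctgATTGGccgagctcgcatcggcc
The match to TCACNCCAC in Hmgcs1 lies at chr13:119690214-119690222, between CCAAT boxes that start at positions 119690175 and 119690306. All 5 CCAAT boxes of the Mvk window fall in the 203 printed bases. Mvd has 2 in opposite orientations, 60 and 27 bases before the start site of its window, and Lss has 1, 62 bases before that of its window.

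Hmgcs1 (chromosome 13, 119690351 to 119708260) encodes HMG-CoA synthase, which joins acetyl units at the entry to the mevalonate steps. It had the highest level of the 9. The lowest, median and highest cell had 55.01, 170 and 1390 RPM in GSC1, 8.69, 280.1 and 1285 RPM in GSC2, 0.63, 140.2 and 1103 RPM in GSCLC1 and 4.62, 220.05 and 820 RPM in GSCLC4. Every cell had the transcript, and the cells of all 4 lines overlapped over most of their range.

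Mvk (chromosome 5, 114444264 to 114460591) encodes mevalonate kinase and Mvd (chromosome 8, 122433596 to 122443422) the decarboxylase that ends the mevalonate steps. Both were patchy. Mvk was above 0 in 17 of 29, 12 of 24, 13 of 30 and 13 of 24 cells of GSC1, GSC2, GSCLC1 and GSCLC4, with medians of 0.44, 0.10, 0 and 0.33 RPM and highest cells of 94.4, 99.8, 97.8 and 37.8 RPM. Mvd was above 0 in 15, 16, 17 and 15 cells of the same lines, with medians of 0.22, 2.30, 1.27 and 1.03 RPM and highest cells of 166.6, 172.4, 84.5 and 58.1 RPM. In each line, then, a minority of cells held most of the signal of these kinase and decarboxylase transcripts, and a 0 in a single cell is not evidence that the transcript was absent from it.

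Fdps (chromosome 3, 89093588 to 89101967) encodes farnesyl diphosphate synthase, which stands where the sterol and non-sterol branches part. The lowest, median and highest cell had 0.80, 112 and 484 RPM in GSC1, 7.23, 97.4 and 315 RPM in GSC2, 1.58, 80.9 and 277 RPM in GSCLC1 and 0.24, 92.6 and 251 RPM in GSCLC4. All cells had the transcript. The ranges overlapped, and the 2 GSC lines had both the higher medians and the higher maxima.

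Fdft1 (chromosome 14, 63145150 to 63181687) encodes squalene synthase, the first step that commits farnesyl diphosphate to sterols. It ran from 0.19 through a median of 93.1 to 417 RPM in GSC1, from 6.96 through 174 to 539 RPM in GSC2, from 0.31 through 99.3 to 555 RPM in GSCLC1 and from 0.49 through 138.2 to 421 RPM in GSCLC4. Here the highest median was in GSC2 and the lowest in GSC1, with the GSCLC lines between them. Sqle (chromosome 15, 59315092 to 59331193) encodes squalene epoxidase, a slow oxygen-dependent step. It ran from 0.58 through 166.9 to 522 RPM in GSC1, from 6.01 through 123 to 473 RPM in GSC2, from 0 through 114.96 to 436 RPM in GSCLC1 and from 2.84 through 101.3 to 421 RPM in GSCLC4. Sqle was at 0 in 1 cell, and its 4 ranges overlapped.

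Lss (chromosome 10, 76531565 to 76557139) encodes lanosterol synthase, which closes the ring system. It was as patchy as Mvk and Mvd, above 0 in 17, 16, 14 and 15 cells of GSC1, GSC2, GSCLC1 and GSCLC4. Its medians were 0.40, 5.65, 0 and 1.23 RPM and its highest cells 180.2, 79.5, 164.04 and 110.8 RPM. Cyp51 (chromosome 5, 4080674 to 4104697), the cytochrome P450 that demethylates lanosterol, was above 0 in 27, 21, 25 and 22 cells. Its medians were 44.2, 19.9, 29.8 and 37.1 RPM and its highest cells 502, 484, 341 and 377 RPM, so that a few cells reached levels about as high as those of Sqle. Dhcr7 (chromosome 7, 143823167 to 143848410), a reductase of the last steps, was above 0 in 25, 22, 26 and 22 cells, with medians of 10.3, 19.7, 14.9 and 28.3 RPM and maxima of 160.5, 164.8, 90.7 and 128 RPM. No line was set apart from the others in any of these late enzymes.

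**Figure D1:**
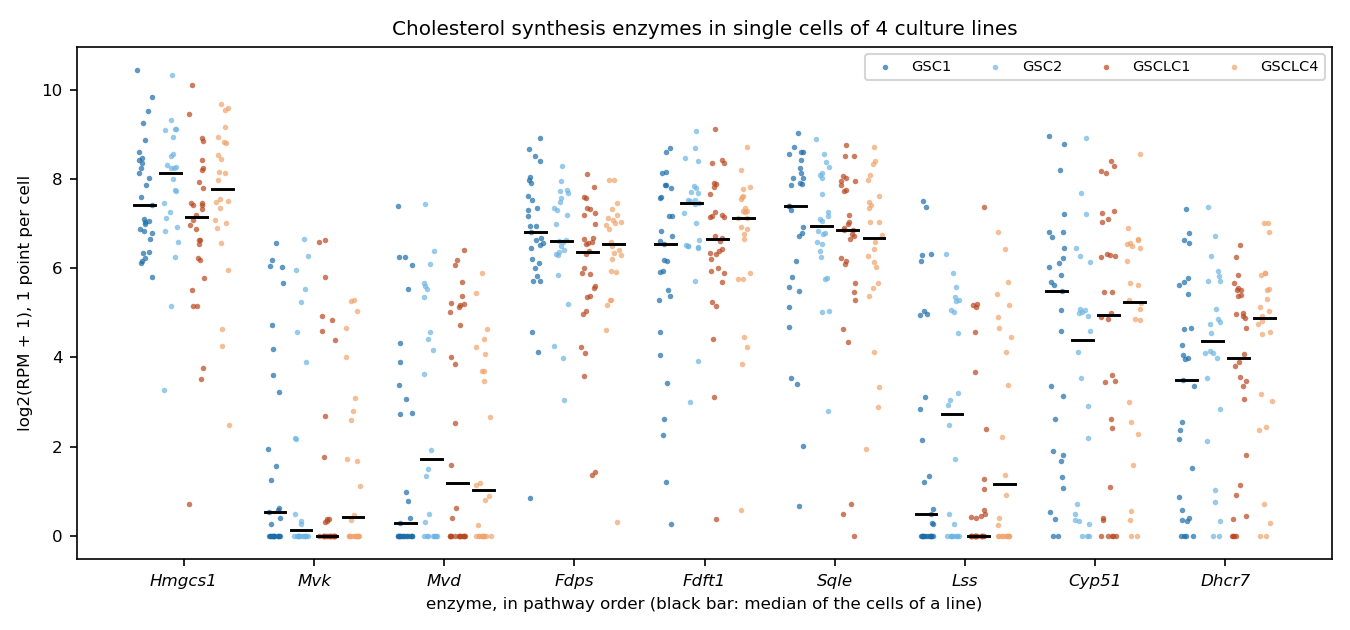
Each point is the log2(RPM + 1) of 1 cell, coloured by line, for the 9 enzymes in pathway order, and black bars are line medians. Hmgcs1, Fdps, Fdft1 and Sqle fill a band well above 0 in nearly every cell, while Mvk, Mvd and Lss split into cells at or near 0 and cells far above it.

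The order of the mean levels was clear at the top and not at the bottom. Over the 4 line means Hmgcs1 averaged 277 ± 49.8 RPM (SD, n = 4 lines), and its lowest line mean, 205 RPM, lay above the highest of any other member. Sqle at 156.8 ± 22.5, Fdft1 at 145.3 ± 23.9 and Fdps at 118.4 ± 26.7 RPM followed, and these 3 neighbours overlapped in their line means. Cyp51 at 67.3 ± 13.0 RPM came next, below all Fdps line means and above all those of Dhcr7 at 30.4 ± 5.72 RPM. Lss at 17.4 ± 5.43, Mvd at 17.2 ± 6.20 and Mvk at 12.2 ± 3.61 RPM closed the order and did not differ beyond their spread, and the highest line mean of Mvd (24.3 RPM) just passed the lowest of Dhcr7 (23.9 RPM).

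Cell-to-cell variation was judged beside all genes with a line mean of at least 50 RPM, whose median coefficients of variation (SD over mean across cells) were 0.85, 0.78, 0.83 and 0.71 in GSC1, GSC2, GSCLC1 and GSCLC4. Hmgcs1 lay above these in every line, at 1.03, 0.86, 1.13 and 0.82. Fdps lay below them in every line, at 0.80, 0.64, 0.77 and 0.61. Cyp51 had 1.59, 1.95, 1.33 and 1.34, the widest relative spread among the 5 members with means above 50 RPM in every line. These values hold biological and technical spread together.

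The 2 GSCLC lines were then compared with the 2 GSC lines to ask whether the route is set at another level in GSC-like cells. The estimate was somewhat lower in GSCLCs for most of the 9 enzymes. The line means of most overlapped between the types, and none differed past the threshold. The test was limma on log2(line mean RPM + 1) over 10519 genes with Benjamini-Hochberg adjustment. It called 0 of the 9 members, against 10 genes or 0.0951% of all tested. At an unadjusted p under 0.05 it again had 0 of 9, against 8.93% of all genes. No label says how the lines of 1 type differ beyond their derivation. The cells of each line also have serial numbers in blocks of their own, so derivation and serial block cannot be told apart. These p-values rest on the spread between lines, with limma's variance moderated over all tested genes.

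Fdps came closest. Its line means were 152.8 RPM in GSC1, 125 RPM in GSC2, 91.4 RPM in GSCLC1 and 104.8 RPM in GSCLC4. Both GSCLC lines were lower than both GSC lines, at 98.1 ± 9.47 against 139 ± 19.9 RPM (mean ± SD, n = 2 lines each), with a log2 fold change of -0.49 ± 0.24 (SE, limma adjusted p = 0.578). Sqle had means of 185.2 and 163.8 RPM in the GSC lines and 143.2 and 135 RPM in the GSCLC lines, without overlap (log2 -0.32 ± 0.21, limma adjusted p = 0.691). Mvk had 14.3 and 15.2 RPM against 11.9 and 7.14 RPM, also without overlap, and its error was wide (log2 -0.62 ± 0.56, limma adjusted p = 0.807). These are the 3 of 9 members whose GSCLC line means both lay below both GSC means, beside 17.6% of all tested genes. None lay above both, beside 21.4% of all genes.

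The other 6 overlapped between the types. Hmgcs1 had 288 and 319 RPM in GSCs and 205 and 298 RPM in GSCLCs (log2 -0.29 ± 0.21, limma adjusted p = 0.73), and the low value belonged to GSCLC1 alone. Mvd had 17.0 and 24.3 against 18.3 and 9.26 RPM, and Lss 23.7 and 17.4 against 10.4 and 17.9 RPM, with log2 fold changes of -0.60 ± 0.52 and -0.54 ± 0.50. Fdft1 had 124 and 179 against 140.5 and 137.5 RPM. Cyp51 had 79.2 and 53.8 against 77.5 and 58.6 RPM, and Dhcr7 27.8 and 32.8 against 23.9 and 37.0 RPM. For Fdft1, Cyp51 and Dhcr7 the log2 fold changes of -0.10, 0.05 and -0.02 were smaller than their errors of 0.24, 0.31 and 0.40. Their signs also turned under other settings: Fdft1 ranged from -0.37 to 0.21, Cyp51 from -0.23 to 0.38 and Dhcr7 from -0.32 to 0.50 on the log2 scale. Mvd and Mvk turned under 1 setting each, to 0.10 with medians over cells for Mvd and to 0.07 with the first run of GSC1 cells for Mvk.

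**Figure D2:**
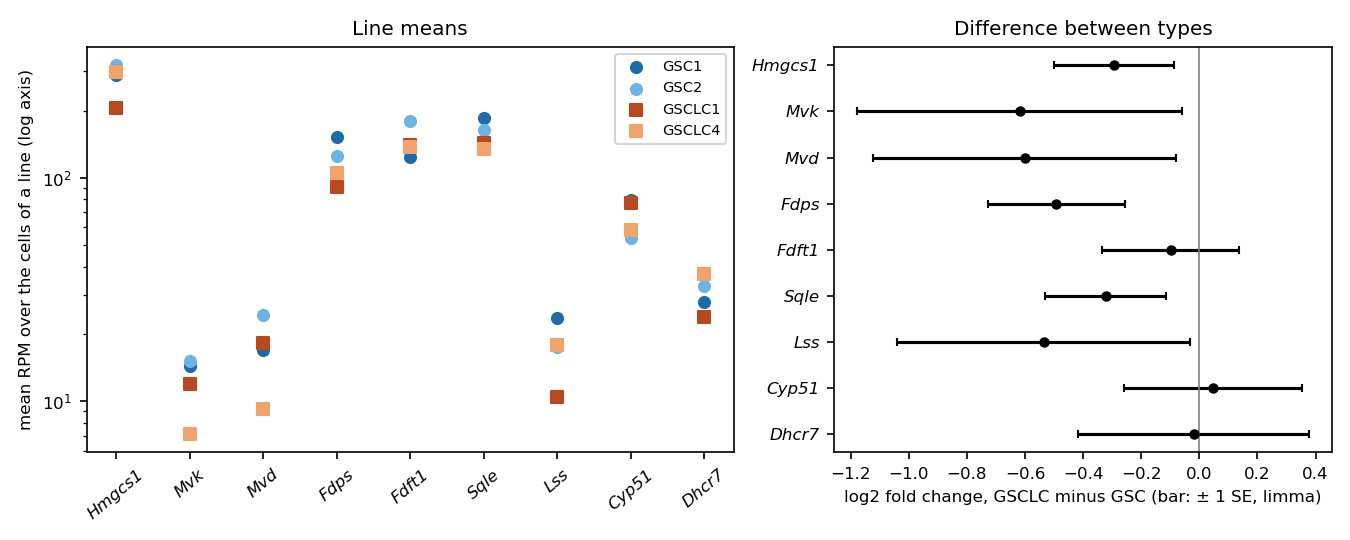
Left, the mean RPM of each enzyme in each line on a log axis (circles GSC, squares GSCLC). Right, the log2 fold change of GSCLC minus GSC with ± 1 SE from limma; the estimate of 8 of 9 enzymes lies below 0, and the adjusted p of none is under 0.05.

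The median of the 9 fold changes was -0.32, against 0.03 for all 10519 genes, and 8 of the 9 were negative, as were 47.2% of all genes. The tally was 6 of 9 with medians over cells, with means of log2 values and with the first run of GSC1 cells alone. It was 7 of 9 with all cells and without GSC2. The members were measured in the same cells, so this tally is not 9 separate observations. Data were also simulated with the moderated variance that limma fitted for each gene and with 200 genes changed. The test then recovered 25.5% of genes changed 2-fold and 72.99% of those changed 4-fold. These are averages over genes of all levels. Under those settings changes of the size seen here would mostly be missed. Of 8 tested fibroblast and feeder markers 6 had negative and 2 positive estimates (Postn at 2.40 and Fn1 at 0.25), with a median log2 fold change of -1.09. One of them, S100a6, fell past the threshold (log2 -1.79, limma adjusted p = 0.0386). Their part in the members' values was not tested.

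Other genes of the route gave a like picture. Of 10 further cholesterol synthesis enzymes tested, 0 passed the threshold, beside 0.0951% of all tested genes. Negative estimates were found for 9 of the 10, beside 47.2% of all. Their median was -0.28. These enzymes were measured in the same cells as the members, so their tally is not a separate observation. Of 11 tested genes of the SREBP system and LDL uptake, 0 passed the threshold, beside 0.0951% of all tested genes. An unadjusted limma p under 0.05 was found for 3 of the 11, beside 8.93% of all. Among them were the sterol carrier Stard4 (57.8 and 78.5 against 32.1 and 46.0 RPM, limma adjusted p = 0.532) and the SREBP-cleaving protease Mbtps2 (11.3 and 10.4 against 22.1 and 40.3 RPM, limma adjusted p = 0.477). The carrier had lower and the protease higher GSCLC line means, without overlap. Srebf2, which encodes the SREBP of the cholesterol genes, had 98.7 and 96.3 against 116.7 and 115.8 RPM (log2 0.25 ± 0.23, limma adjusted p = 0.814).

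The next question was whether the 9 enzymes go up and down together from cell to cell within a line. They did so weakly, and unevenly between lines. The measure was Spearman's rho of log2(RPM + 1) over the 29, 24, 30 and 24 cells of GSC1, GSC2, GSCLC1 and GSCLC4 for the 36 pairs of members. In that order of lines the median rho was 0.16, 0.17, 0.05 and 0.13, against medians of 0.01, 0.01, 0.01 and 0.02 over all pairs of the 7616 genes detected in at least 50% of the cells of every line. Mvk and Lss are not among those 7616. Cells of a line share culture, preparation and depth differences, and rho values of this size at such n are descriptions.

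Counted by size, 8, 9, 4 and 10 of the 36 pairs had a rho of at least 0.3 in GSC1, GSC2, GSCLC1 and GSCLC4, where all gene pairs gave 6.62%, 8.74%, 6.18% and 9.52%. In GSCLC1 the count lay closest to that background. A positive rho in all 4 lines was found for 13 of 36 pairs, against 7.79% of all gene pairs. Of the 36 pairs 15 reached 0.3 in no line, some of them positive in all 4. Positive pairs numbered 33 and 30 in the GSC lines and 22 and 25 in the GSCLC lines, where 51.9%, 51.8%, 51.7% and 52.8% of all gene pairs were positive. The difference between the types was not tested.

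**Figure D3:**
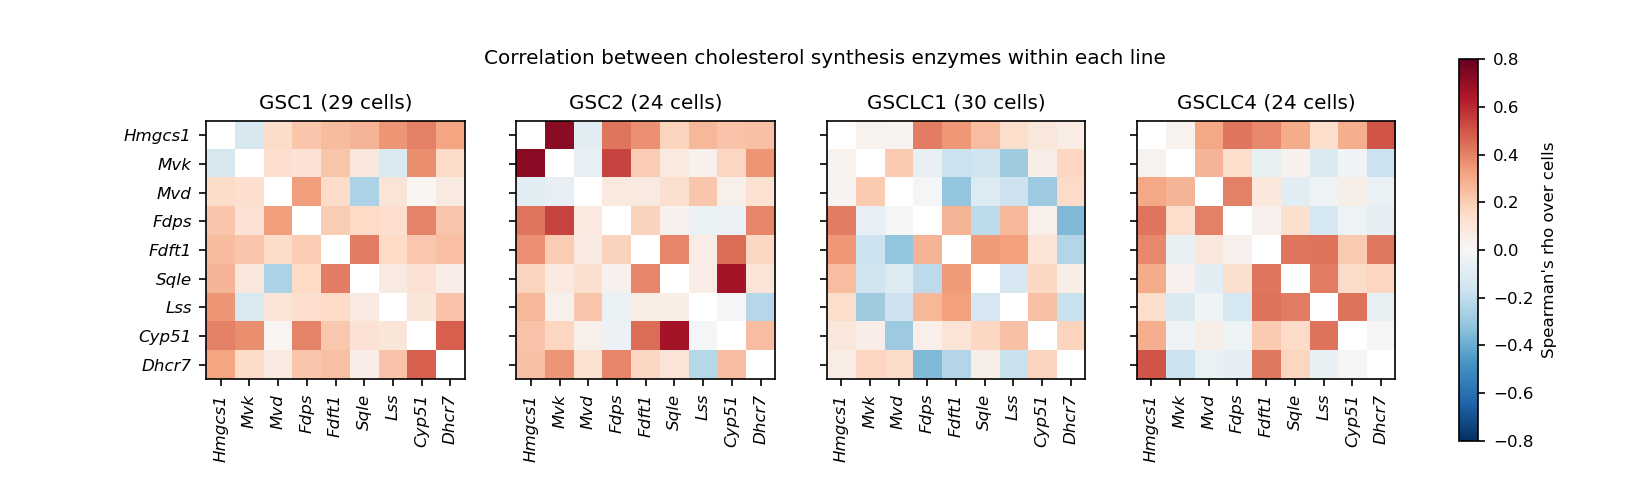
Spearman's rho over the cells of a line for each pair of enzymes, 1 panel per line, from blue (-0.8) to red (0.8), diagonal blank. The Fdft1 and Sqle pair is red in all panels and the row of Hmgcs1 mostly so, and the rows of Mvk and Mvd change colour between lines.

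The steadiest pair joined the consecutive enzymes Fdft1 and Sqle, which make squalene and then its epoxide. Their rho was 0.41, 0.39, 0.34 and 0.43 in the 4 lines, and no other pair reached 0.3 in every line. Hmgcs1 followed with Fdps (0.22, 0.43, 0.41 and 0.43) and with Fdft1 (0.25, 0.37, 0.35 and 0.38). Of its 8 pairs 6 were positive in all lines, the most of any member. Fdft1 had 5 such pairs, Sqle and Cyp51 4 each, and Dhcr7 3.

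Some pairs were strong in 1 line and absent or negative in others. Hmgcs1 and Mvk had a rho of 0.72 in GSC2, the highest of any pair in any line, and -0.13, 0.03 and 0.03 in GSC1, GSCLC1 and GSCLC4. Sqle and Cyp51 had 0.67 in GSC2 and 0.12, 0.17 and 0.15 elsewhere. Fdps and Dhcr7 went from 0.39 in GSC2 to -0.35 in GSCLC1. Mvk, Mvd and Lss, which were at 0 in many cells, had few steady pairs: Mvk and Mvd had none positive in all 4 lines, and Lss had 2. Ties at 0 limit what a rank correlation can show for them.

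To show the cells behind these values, each cell was given a score, the mean over the 9 enzymes of its standardised log2(RPM + 1) within the line. The cell with the highest score in GSC1 had all 9 enzymes at 5 RPM or more, with 737 RPM of Hmgcs1, 417 of Fdft1, 502 of Cyp51, 166.6 of Mvd and 180.2 of Lss. The highest in GSC2 had 1285 RPM of Hmgcs1, 539 of Fdft1 and 484 of Cyp51. The highest in GSCLC4 had 771 RPM of Hmgcs1, 421 of Fdft1, 421 of Sqle and 377 of Cyp51. The highest in GSCLC1 had 699 RPM of Hmgcs1 and 343 of Fdft1, but 5.10 of Cyp51 and 0 of Lss. The score chose these cells, so high values over several enzymes are built in, and not all were high: Sqle in the GSC1 cell (166.9 RPM) and Fdps in the GSC2 cell (98.7 RPM) were close to the medians of their lines. At the other end was the lowest GSCLC4 cell. It had 4.62 RPM of Hmgcs1, 0.24 of Fdps, 0.49 of Fdft1 and 0 of Mvk, Mvd and Dhcr7. Its 16.5 RPM of Sqle was below the line median, but its 24.3 RPM of Lss was above the median of 1.23. Its 8217 detected genes were the fewest in GSCLC4, and its spike-in RPM of 63863 was the highest there.

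Without the 2 cells farthest from the middle of each line by score, the median rho of the 36 pairs was 0.10 and 0.057 in the GSC lines and 0.07 and -0.035 in the GSCLC lines. These cells were chosen by the score of the same genes, which favours a lower rho without them. In GSCLC1 the value still lay above the 0.05 of all its cells. No other genes were treated in the same way. With all cells kept and Hmgcs1 left out the median was 0.11 in GSC2 and 0.04 in GSCLC4. With the left-out GSC1 cell included, the GSC1 median was 0.21. The GSC1 cells form 2 runs by serial number, and the median was 0.11 in the 13 cells of the first and 0.24 in the 16 of the second.

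**Figure D4:**
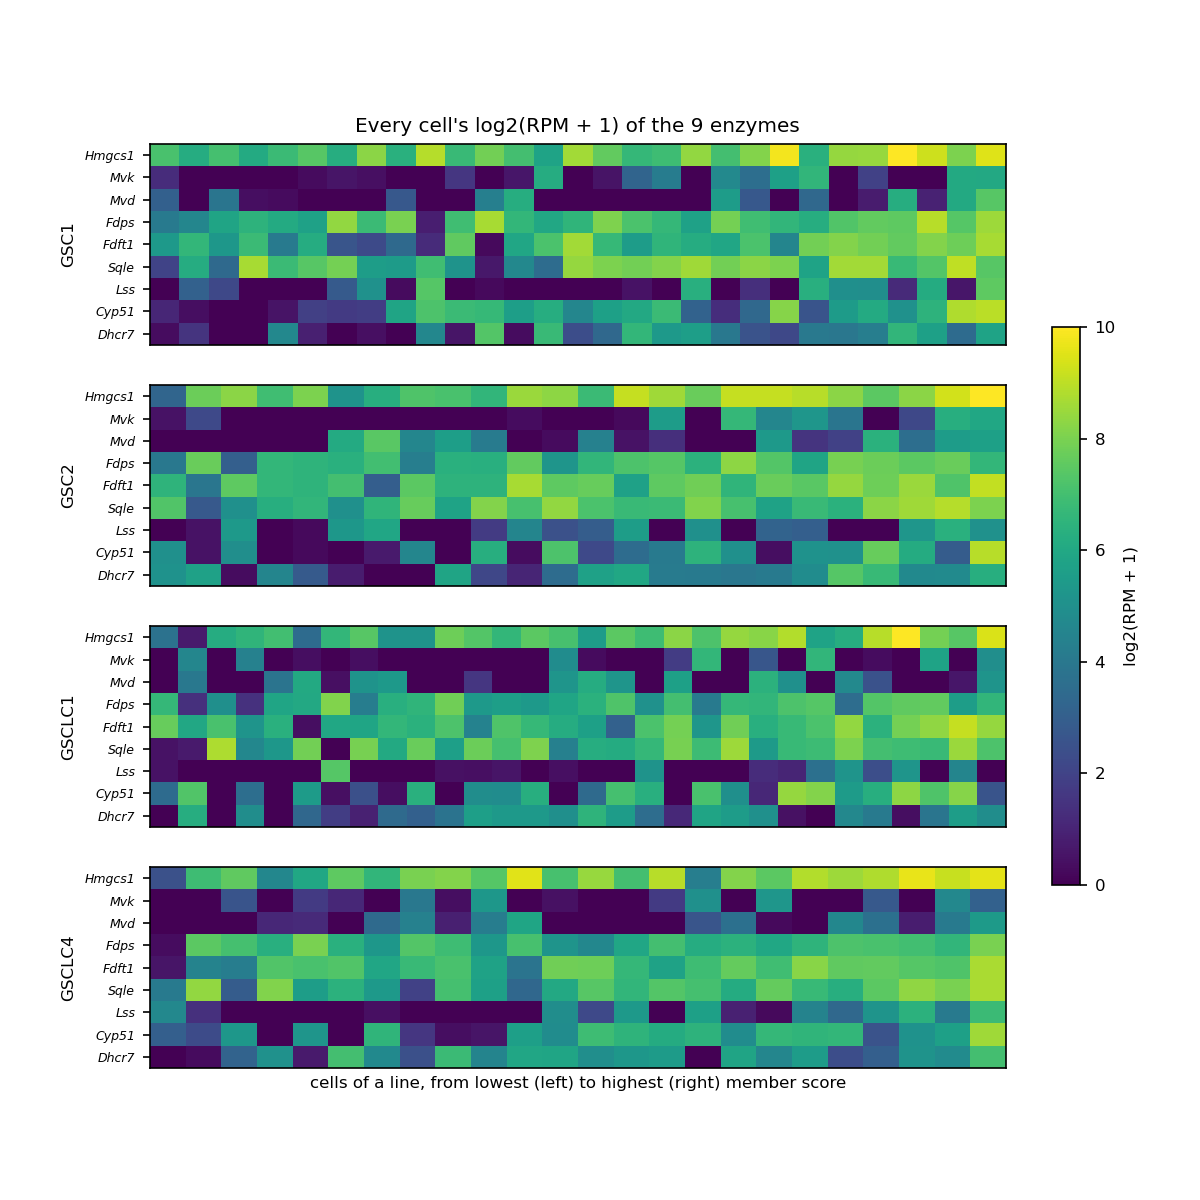
Each column is 1 cell and each row 1 enzyme, coloured by log2(RPM + 1) and ordered from the lowest to the highest score within a line. The rightmost cells of GSC1, GSC2 and GSCLC4 are bright in nearly all rows, and the leftmost GSCLC4 cell is dark in most.

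The number of enzymes at 5 RPM or more in a cell had medians of 6 and 6.5 in the GSC lines and 6 and 7 in the GSCLC lines. All 9 reached it in 2 cells each of GSC1, GSC2 and GSCLC4 and in 0 of 30 cells of GSCLC1. The score moved with the number of detected genes in GSC2 (rho 0.58) and GSCLC4 (0.55), against -0.09 in GSC1 and 0.13 in GSCLC1. With each gene regressed on depth and detected genes, the median rho of the pairs was 0.17, 0.10, 0.03 and 0.04 in the 4 lines. The score had a rho of 0.45 with S phase genes in GSCLC4 and 0.13, 0.21 and -0.02 in the others. With spike-in RPM it was -0.38 in GSCLC4 and between -0.06 and 0.01 elsewhere, and with the summed fibroblast markers it was between -0.06 and 0.15. With each gene regressed on S phase and G2 and M scores instead, the median rho of the pairs was 0.18, 0.12, 0.03 and 0.09, and with spike-in scaling it was 0.22, 0.19, 0.10 and 0.16. The part of the fibroblast markers was not tested.

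All genes outside the 9 were ranked by their mean within-line rho with the score, over 7609 genes. Insig1, the sterol-sensing anchor of the SREBP system, stood at rank 4 (0.32, 0.38, 0.27 and 0.51), and Stard4, a carrier of cholesterol between membranes, at rank 10 (0.37, 0.53, 0.05 and 0.44). Their means of 4 lines were 0.37 and 0.35. With each gene regressed on depth and detected genes the means were 0.29 and 0.29, and with spike-in scaling 0.45 and 0.39. Without the 2 cells farthest by score in each line they were 0.27 and 0.36.

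Also among the first 10 were Nub1, Ttll12, Lztfl1, Serinc5, Zfp513, Mrps9 and Pecr, with mean rho values between 0.35 and 0.37. Nub1 ranged from 0.04 in GSC1 to 0.71 in GSCLC1 and Lztfl1 from 0.02 in GSCLC1 to 0.62 in GSC2, so the mean of 4 lines hides uneven values. The 5 lowest were Gm10736, Rhox13, Rpl41, Gm7589 and Eif4b, with means from -0.37 to -0.34. Rpl41 encodes a ribosomal protein and Eif4b a translation initiation factor.

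Of 9 further cholesterol synthesis enzymes in the ranking, 8 had a positive mean rho, beside 63% of all ranked genes. In all 4 lines the rho was positive for 6 of 9, beside 11.3% of all, and 6 of 9 fell within the first 760 ranks, beside 9.99%. Their median was 0.26 against 0.04 for all genes. Idi1, which isomerises the isoprenoid unit, had a mean of 0.32 (0.41, 0.48, 0.04 and 0.35) at rank 32. Sc4mol and Nsdhl, which remove methyl groups from sterols, had 0.27 and 0.26, and Acat2 0.18 and Lbr 0.12. Hsd17b7, also a sterol demethylation enzyme, went the other way, with -0.13, -0.15, -0.32 and -0.08 and a rank of 7387.

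**Figure D5:**
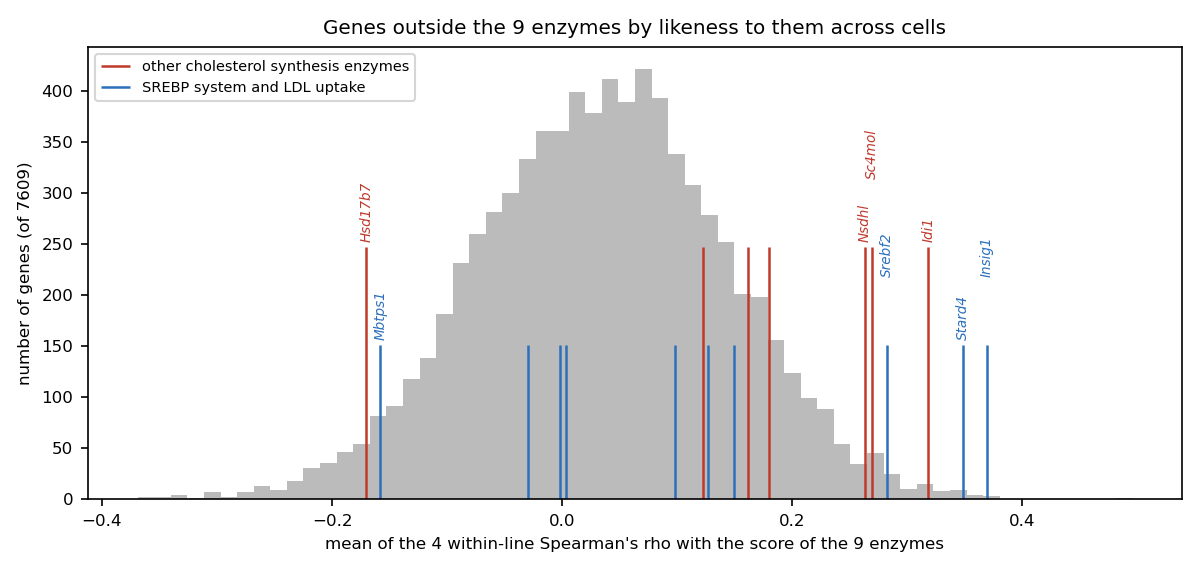
Grey bars count the 7609 ranked genes by the mean of their 4 within-line rho values with the score of the 9 enzymes, and vertical lines mark 7 further cholesterol enzymes (red) and 10 genes of the SREBP system and LDL uptake (blue); line height has no meaning. Insig1, Stard4, Idi1 and Srebf2 lie in the right tail, while Hsd17b7 and Mbtps1 lie on the left.

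The SREBP and LDL list had a median of 0.11. A positive mean was found for 7 of its 10 ranked genes, near the 63% of all ranked genes. Within the first 760 ranks, which hold 9.99% of all, were 3 of the 10. Besides Insig1 and Stard4 this was Srebf2, with 0.18, 0.17, 0.35 and 0.43. The protease Mbtps1 had a mean of -0.16 and its partner Mbtps2 -0.03.

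Lists that branch off or adjoin the route had medians close to that of the SREBP and LDL list. The non-sterol users of mevalonate (prenylation, dolichol and ubiquinone) had a median of 0.12 over 10 ranked genes. They ran from Fnta at 0.22 to Ggps1 at -0.05. Of the 10, 4 were within the first 760 ranks, beside 9.99% of all ranked genes. Fatty acid synthesis had 0.11 over 10 genes, all of which had positive means, beside 63% of all ranked genes. Scd2 at 0.17 and Acly at 0.17 led this list, and 1 of its genes was within the first 760 ranks. Sterol efflux and storage had 0.12 over 5 genes, led by Abcg1 at 0.19 and Soat1 at 0.18. The S phase list had the same median of 0.12 over 16 genes, with Gins2 at 0.23 and Slbp at 0.22, while G2 and M phase genes had 0.04 over 18. Germ cell markers had 0.02 over 12 genes, with Piwil4, a piRNA pathway protein, at 0.27 and Dazl at -0.31, near the bottom of the ranking at 7599.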

How the data were processed

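The authors deposited 1 table of expression signal as RPM for 26218 genes and 92 spike-in RNAs in 108 cells, and 107 were used. The submitters' processing notes name TopHat 1.4.1, Cufflinks 2.2.0, cutadapt 1.3 and the build mm10, and the counting of reads with several matches is not given. Gene rows sum to between 1000640 and 1001485 RPM per cell with spike-ins on top, and the 6440 blank entries of spike-ins were taken as 0. Depth was estimated from the worth of 1 read. Values within 0.05 of a whole read made up 85.6% to 92.4% of a cell, too few for counts, so no count model was fitted.

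Line means were tested with limma 3.58.1 in R 4.3.3 (lmFit, eBayes with trend) on log2(mean RPM + 1), a scale that understates changes of low genes, for the 10519 genes with at least 5 RPM in 2 or more lines. Adjusted p-values are Benjamini-Hochberg over these genes with a threshold of 0.05. With 2 lines against 2, an exact permutation test cannot go below p = 0.333. In 10 simulated draws 6.15% of calls were false. Correlations over cells were described without p-values. Named genes were the 9 members, the 10 highest and 5 lowest genes by rho with the score, and up to 4 high and 2 low genes of each list. Some genes this rule names are not reported here. Genes were also named after their values were seen where a count of 5 or fewer called for it. The members and lists were chosen with earlier results of these data known. Positions and promoters are RefSeq's on GRCm38.p6, the assembly of mm10, with 24619 gene identifiers (93.9%) matched. Alternatives covered pseudocount, filter, summary over cells, scaling, variance model, correlation measure, regression on technical and cell cycle measures, and left-out cells, lines and members.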

Additional observations from a re-analysis of the deposited data

How the results depend on the processing

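Members past the limma threshold numbered 0 under all 16 alternatives, with a lowest adjusted p of 0.545; the lowest unadjusted p, 0.0191, was that of Hmgcs1 without GSCLC4. Of the alternative fold changes of members 125 kept their direction and 16 turned. Those that turned were all below the threshold before and after: with medians over cells Mvd at 0.10 and Dhcr7 at 0.50; with means of log2 values Fdft1 at 0.017 and Dhcr7 at 0.28; with spike-in scaling Cyp51 at -0.0033 and Dhcr7 at 0.048; with all cells Dhcr7 at 0.0045; with the first run of GSC1 cells Mvk at 0.075 and Fdft1 at 0.21; with the second run Cyp51 at -0.065 and Dhcr7 at 0.073; without GSC2 Fdft1 at 0.17, Cyp51 at -0.23 and Dhcr7 at 0.10; and without GSCLC1 Cyp51 at -0.15 and Dhcr7 at 0.28. With a line left out Fdft1 ranged from -0.37 to 0.17, Cyp51 from -0.23 to 0.32 and Dhcr7 from -0.32 to 0.28. The cause was not tested.

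Genes past the threshold numbered 10 (7 higher, 3 lower). The count was 20 with a pseudocount of 10, 3 with 0.1, 0 with no filter (1407 at an unadjusted p under 0.05), 21 with a filter of 20 RPM, 0 with medians over cells (716 unadjusted), 35 with spike-in scaling (18 higher, 17 lower), 0 without a variance trend (874 unadjusted), and 4 and 3 with the first and the second run of GSC1 cells alone. It ranged from 3 to 39 when a line was left out, with 39 without GSCLC1 and 3 without GSCLC4.

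The median rho between members moved by more than the SD over lines (0.05) as follows. In GSC1 it was 0.22 with spike-in scaling, 0.24 in the second run and 0.10 without the 2 farthest cells. In GSC2 it was 0.10 after regression on depth and detected genes and 0.057 without the 2 farthest cells. In GSCLC4 it was 0.20 with Pearson's r and a pseudocount of 10, 0.040 after the regression and -0.035 without the 2 farthest cells. With 1 member left out it ranged from 0.14 to 0.22 in GSC1, 0.11 to 0.19 in GSC2, 0.01 to 0.07 in GSCLC1 and 0.038 to 0.16 in GSCLC4. No paired analysis was possible because the lines of the 2 types share no replicate label. With 2 lines per type and 24 to 30 cells per line, moderate differences and weak correlations were not resolvable.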

Other observations

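Mmab, which encodes an enzyme of cobalamin metabolism, lies head to head with Mvk and shares the printed promoter stretch. Its mean was 8.29 RPM in GSC1, 3.14 RPM in GSC2, 14.7 RPM in GSCLC1 and 25.5 RPM in GSCLC4. Both GSCLC means lay above both GSC means, beside 21.4% of all tested genes, while those of Mvk lay below both, beside 17.6%. In the first run of GSC1 cells alone the Mvk mean was 4.87 RPM, below its GSCLC means of 11.9 and 7.14 RPM. Across cells the rho of Mmab with Mvk was 0.04, 0.25, -0.02 and 0.07 in the 4 lines. This gene was named after its values were seen.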
